A study of Mus musculus with 8 samples.

Results

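The DNA damage response and repair genes are a list of 53 mouse genes, chosen by symbol from the main repair pathways, and 52 of them were in both deposited count tables, which share 17893 genes. Fanca was not analysed here. RNA was measured in long-term haematopoietic stem cells (LT-HSC), the rare bone marrow cells that sustain blood formation for life, and in multipotent progenitors (MPP), their more actively dividing offspring. Each population came from mice that had received either wild-type (WT) or Tet1 knockout (KO) bone marrow. Tet1 is one of the TET enzymes, which oxidise 5-methylcytosine in DNA. Crossing population with genotype gives 4 groups of 2 libraries each. Cells of all groups were sorted from the marrow of 6-month-old mice 20 weeks after the transplant, with the strain written in the labels as CD57BL/6. An LT-HSC library was made from 10000 cells and an MPP library from 100000 cells. The WT groups therefore also stand for transplanted marrow, and recipient cells could remain in every group. The labels do not say whether the libraries of a group came from separate mice, and the spread behind each p-value may be technical.

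Cells meet DNA damage with a signalling layer and with several repair pathways. Sensor complexes and the kinases ATM and ATR detect breaks and stalled replication forks and pass the signal on to the checkpoint kinases. Homologous recombination copies an intact sister chromatid and works in S and G2 phase, whereas end joining ligates broken ends at any phase of the cell cycle. Fanconi anaemia proteins deal with crosslinks between the DNA strands, mismatch repair with replication errors, nucleotide excision repair with bulky lesions, and base excision repair with small base damage and nicks. In the blood system, loss of Fanconi anaemia genes is known for marrow failure, and resting stem cells are known to rely on end joining more than dividing progenitors do.

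Library totals ran from 4976459 to 5479731 counts in LT-HSC and from 11928659 to 12504581 counts in MPP, so 3 counts corresponded to 0.547 to 0.603 CPM (counts scaled to library size) in LT-HSC and to 0.24 to 0.251 CPM in MPP. Counting error only is covered by these limits. The MPP marker Flt3 had 121 to 228 counts in the LT-HSC libraries and 4119 to 4597 in the MPP libraries, Cd48 had 8 to 34 and 1144 to 1605, and 9 LT-HSC markers summed to 1586 to 2044 CPM in LT-HSC and 899 to 938 CPM in MPP. Tet1 itself did not separate the LT-HSC groups: counts were 332 and 428 in WT and 336 and 379 in KO, with a log2 fold change of -0.09 (adjusted p = 0.765). In MPP they were 1207 and 1323 in WT and 765 and 855 in KO, with a log2 fold change of -0.62 (adjusted p = 0.0282). The labels do not name the deleted part of Tet1, so a count over the whole gene does not check them, and LT-HSC KO below means the libraries labelled so. The Y-linked genes Ddx3y, Eif2s3y, Kdm5d and Uty had 101 to 400 counts in every LT-HSC WT library and 1 to 35 in every LT-HSC KO library, and the MPP groups were separated likewise, so genotype and the sex of the cells cannot be told apart. Every comparison between populations also follows the number of cells sorted and the deposited table.

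RefSeq promoters (assembly GRCm38.p6, 250 bases before to 50 after the start) were matched by symbol for 42 of the 52 genes. An E2F site, bound by the factors that drive S-phase genes, was searched on both strands as TTTCCCGC, TTTCGCGC, TTTGCCGC or TTTGGCGC, beside the cell cycle element CHR (TTTGAA) and the CCAAT box (CCAAT). Neither TTTGAA nor CCAAT can lie inside an E2F site, whereas E2F sites on opposite strands can overlap. Promoters with an E2F site numbered 9 of 42 repair genes (21.4%), against 2.26% of all 32851 promoters in the table and 3.67% of 10832 promoters, 1 for each symbol in both count tables. A CCAAT box was present in 54.8% of the repair gene promoters and 38.2% of the 10832, and a CHR in 4.76% and 12.7%. Shown are Bard1 and Msh3, which rose in LT-HSC KO and hold an E2F site, Fancg, which fell there and also holds one, and Lig4, the lowest repair gene of WT LT-HSC, with no match to any of the 3 motifs. All 4 lie on the minus strand and are written 5′ to 3′ in the direction of the gene, with motif matches in capitals.
Bard1, chr1:71102923-71103222: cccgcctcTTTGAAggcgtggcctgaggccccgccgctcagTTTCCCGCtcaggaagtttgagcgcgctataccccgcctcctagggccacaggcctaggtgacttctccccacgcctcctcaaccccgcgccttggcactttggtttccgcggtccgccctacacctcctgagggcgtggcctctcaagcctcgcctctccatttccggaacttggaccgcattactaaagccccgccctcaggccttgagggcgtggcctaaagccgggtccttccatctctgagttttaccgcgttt
Msh3, chr13:92354954-92355253: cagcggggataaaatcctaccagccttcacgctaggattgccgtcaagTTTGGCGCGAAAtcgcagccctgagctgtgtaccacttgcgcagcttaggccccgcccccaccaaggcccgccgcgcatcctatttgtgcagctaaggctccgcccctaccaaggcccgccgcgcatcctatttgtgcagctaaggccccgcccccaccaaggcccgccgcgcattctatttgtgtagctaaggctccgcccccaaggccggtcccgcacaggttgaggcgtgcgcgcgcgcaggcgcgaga
Fancg, chr4:43010252-43010551: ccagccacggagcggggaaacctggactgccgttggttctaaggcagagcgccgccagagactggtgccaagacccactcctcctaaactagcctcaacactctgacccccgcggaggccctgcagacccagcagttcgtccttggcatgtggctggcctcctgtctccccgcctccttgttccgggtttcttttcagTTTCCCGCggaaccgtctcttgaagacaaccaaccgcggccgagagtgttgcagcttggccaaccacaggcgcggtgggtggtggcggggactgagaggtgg
Lig4, chr8:9977631-9977930, the first of 2 RefSeq promoters of the gene: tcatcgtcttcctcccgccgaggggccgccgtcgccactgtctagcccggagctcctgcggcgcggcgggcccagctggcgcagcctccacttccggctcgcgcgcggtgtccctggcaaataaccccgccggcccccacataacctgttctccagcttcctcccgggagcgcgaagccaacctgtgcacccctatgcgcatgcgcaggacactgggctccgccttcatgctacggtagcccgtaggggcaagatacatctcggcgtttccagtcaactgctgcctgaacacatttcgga
In Bard1 the E2F site began 209 bases before the start and the CHR 242 bases before it. In Msh3 a pair of overlapping E2F sites on opposite strands lay 202 and 198 bases before the start, and in Fancg the site lay 52 bases before it. The other members with an E2F site were Brca2, Chek2, Mdc1, Msh6, Rad51c and Xrcc6. A match describes letters in the window, not binding.

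Per length of exon, the repair genes spanned a wide range of levels. Ddb1, the adaptor of a ubiquitin ligase that also recognises ultraviolet lesions, stood first in every group, with 88.3 ± 19.3 CPM per kb (SD, n = 2) in LT-HSC WT and 82.7 ± 4.44 CPM per kb (SD, n = 2) in MPP WT. Parp1, the abundant sensor of DNA nicks, came next with 60.1 ± 10.9 and 65.7 ± 4.53 CPM per kb (SD, n = 2 each). Msh6, a subunit of the mismatch recognition complex, followed in the WT groups with 34.3 ± 2.10 and 42.4 ± 0.394 CPM per kb (SD, n = 2 each). In LT-HSC WT the gap between Ddb1 and Parp1 was 0.934 times the sum of their SDs, so these neighbours were not separated beyond their spread, whereas in MPP WT it was 1.89 times that sum. At the lower end of LT-HSC WT stood Fancc (0.987 ± 0.0927 CPM per kb), Pms2 (0.800 ± 0.0770), Mutyh (0.657 ± 0.531) and Lig4 (0.109 ± 0.0549; SD, n = 2 each). Pms2 and Mutyh, and Mutyh and Lig4, lay closer together than the sum of their SDs. In MPP WT the lowest were Lig4, Ercc2 and Fancc, at 1.63, 1.60 and 1.57 CPM per kb, none of which differed from its neighbour by more than the sum of their SDs.

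The comparison of the WT populations asks how stem cells and their progenitors differ in repair gene RNA. In LT-HSC WT, 8 of 52 repair genes were lower than in MPP WT and 3 were higher, by edgeR's quasi-likelihood test with Benjamini-Hochberg adjustment over all 14660 genes tested (adjusted p under 0.05). That is 21.2% of the list, against 34.3% of all genes called in either direction (16.9% lower and 17.4% higher). The median log2 fold change of the list was -0.24, against 0.02 over all genes. Both LT-HSC libraries lay below both MPP libraries for 32 of the 52 genes and above them for 12, against 38.3% and 32.7% of all genes. In bulk RNA, fewer cells that express a gene and less RNA per cell cannot be told apart. Proliferation markers were also lower in LT-HSC WT, with 7 of 21 called lower, 0 called higher and summed levels of 3922 and 4480 CPM against 5505 and 5553 CPM. B lineage markers were lower for 6 of 6 (36.8 and 40.0 CPM against 373 and 382 CPM), granulocyte and monocyte markers for 5 of 5 tested (1.28 and 1.54 CPM against 147 and 159 CPM), and megakaryocyte markers were higher for 4 of 4 (627 and 801 CPM against 87.2 and 107 CPM). The part of these markers in the result was not tested.

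End joining held the lowest value and members in both directions. Lig4, the ligase that seals ends in this pathway (chr8:9970020-9977686, mm9), had 2 and 4 counts in LT-HSC WT and 110 and 92 counts in MPP WT. That is 0.367 and 0.770 CPM against 9.22 and 7.70 CPM, a gap far wider than the spread within either group, with a log2 difference of -3.82 (SE 0.44, adjusted p = 0.00225). The Lig4 gene model ends 20 bp before that of Abhd13 on mm9, and reads of overlapping transcripts could be split between them by the counting. Abhd13 had 48 and 84 counts in LT-HSC WT and 386 and 439 in MPP WT (log2 fold change -1.42, SE 0.28, adjusted p = 0.0125). Prkdc, the catalytic subunit of the DNA-dependent protein kinase, was also lower, with 66.7 and 74.5 CPM in LT-HSC WT and 95.3 and 103 CPM in MPP WT (log2 fold change -0.44, SE 0.13, adjusted p = 0.0422). Xrcc5, which encodes the Ku80 subunit that clamps broken ends, was higher, with 69.9 and 50.1 CPM against 35.97 and 39.02 CPM (log2 fold change 0.73, SE 0.20, adjusted p = 0.0358). Its Ku70 partner Xrcc6 gave 18.7 and 15.02 CPM against 19.03 and 21.9 CPM (log2 fold change -0.22, SE 0.21, adjusted p = 0.44), and Xrcc4, the scaffold of Lig4, gave 14.7 and 19.8 CPM against 12.2 and 14.5 CPM (log2 fold change 0.42, SE 0.23, adjusted p = 0.196), neither of which passed the test.

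In homologous recombination, 3 of 11 genes were lower in LT-HSC WT and 1 was higher. Brca1, which promotes the resection of broken ends, had 50.1 and 61.4 CPM in LT-HSC WT and 97.6 and 97.7 CPM in MPP WT (log2 fold change -0.76, SE 0.14, adjusted p = 0.00995). Its obligate partner Bard1 had 34.1 and 47.6 CPM against 67.2 and 73.4 CPM (log2 fold change -0.74, SE 0.18, adjusted p = 0.0246). For both genes the higher LT-HSC library stayed below the lower MPP library. The strand exchange factors split: Xrcc2 was lower, with 7.15 and 13.7 CPM against 21.7 and 23.8 CPM (log2 fold change -1.08, SE 0.30, adjusted p = 0.0351), and Xrcc3 was higher, with 19.3 and 15.6 CPM against 6.29 and 5.19 CPM (log2 fold change 1.66, SE 0.25, adjusted p = 0.00516). Rad51c, which forms complexes with both, gave 2.93 and 5.97 CPM against 7.88 and 8.71 CPM and did not pass (log2 fold change -0.85, SE 0.37, adjusted p = 0.12). Brca2, a mediator of strand invasion, and Palb2, which joins Brca1 to Brca2, had log2 fold changes of -0.43 and -0.55 with adjusted p of 0.0669 and 0.0734. Rad52 was the other member with a positive value, 0.71 (adjusted p = 0.0629).

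Among the remaining pathways, 1 Fanconi anaemia gene, 1 mismatch repair gene and 1 excision repair gene were lower, and 1 excision repair gene was higher. Brip1, a helicase that binds Brca1 and acts with the Fanconi proteins, had 35.8 and 35.8 CPM in LT-HSC WT and 77.4 and 80.3 CPM in MPP WT (log2 fold change -1.09, SE 0.13, adjusted p = 0.00256). Pms2, the endonuclease of mismatch repair, had 6.05 and 6.93 CPM against 15.1 and 13.98 CPM (log2 fold change -1.11, SE 0.22, adjusted p = 0.0137). Xpc, the sensor of distorted DNA that opens global nucleotide excision repair, had 66.6 and 52.4 CPM against 98.9 and 93.9 CPM (log2 fold change -0.64, SE 0.16, adjusted p = 0.0287). Ercc5, the nuclease that cuts on the 3′ side of the lesion, was the excision repair gene that was higher, with 25.7 and 29.1 CPM against 13.8 and 17.5 CPM (log2 fold change 0.86, SE 0.20, adjusted p = 0.021). None of the 10 signalling genes and none of the 6 base excision genes was called by edgeR. Of these, Mutyh, a glycosylase for mispaired adenine, had the largest difference, with 0.733 and 2.70 CPM against 5.79 and 5.44 CPM (log2 fold change -1.67, SE 0.53, adjusted p = 0.0546). When a library was left out, the number of all genes called varied widely (range in the last section), and the repair gene counts varied with it. Lig4, Brip1 and Xrcc3 kept their calls under all 8 alternatives run, whereas Prkdc and Xrcc5 were each called under 4 of 8. Without MPP WT 1 the counts were 4 lower and 1 higher, without MPP WT 2 they were 3 and 1, and without LT-HSC WT 2 they were 15 and 7.

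The knockout comparison in LT-HSC asks what changed in the stem cells that came from Tet1 KO marrow. Of the 51 repair genes that passed the filter on low counts, 9 rose and 2 fell in LT-HSC KO relative to LT-HSC WT, and 40 were not called. That is 21.6% of those tested, against 33.4% of all 15684 genes (22.5% higher and 10.9% lower). The median log2 fold change was 0.22, against 0.03 over all genes. Both KO libraries lay above both WT libraries for 24 of the 51 genes and below them for 10, against 34.5% and 31.1% of all genes. Homologous recombination held 4 of the 9 genes that rose. Nucleotide excision repair had no called gene, and 8 of its 9 values were negative (7 of 9 with the background described below subtracted). From start to end its 9 genes cover 11.7 to 41 kb, and the 4 recombination genes that rose cover 63.2 to 151 kb. Role and gene length therefore cannot be told apart in this contrast.

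**Figure D1:**
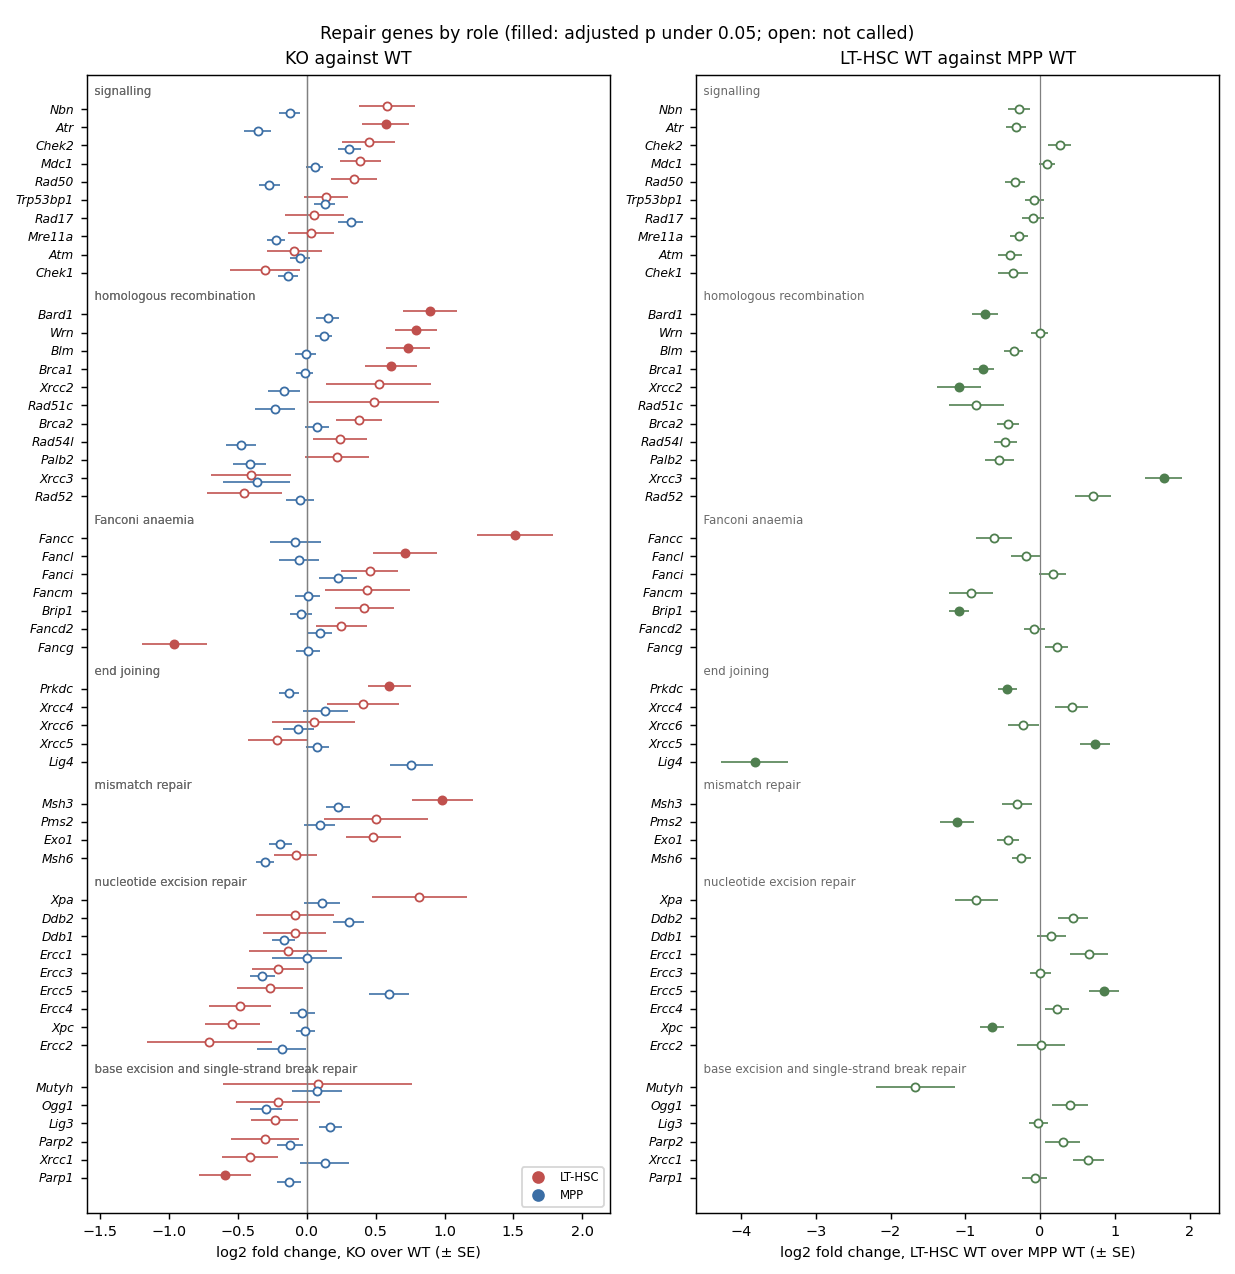
Log2 fold changes (± SE, 2 libraries a group) of the repair genes, ordered by role: KO over WT in LT-HSC and MPP on the left, LT-HSC WT over MPP WT on the right. Filled points passed the test (adjusted p under 0.05); 9 genes rose and 2 fell in LT-HSC KO, and no MPP point is filled.

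In homologous recombination, Bard1 (chr1:71074072-71149720, mm9) had 34.1 and 47.6 CPM in LT-HSC WT and 72.8 and 77.4 CPM in LT-HSC KO, with a log2 difference of 0.89 (SE 0.20, adjusted p = 0.00913). Its partner Brca1 (chr11:101350078-101413269) had 50.1 and 61.4 CPM in WT and 73.3 and 95.6 CPM in KO, with a wider spread between the KO libraries (log2 fold change 0.61, SE 0.19, adjusted p = 0.0373). For both genes the KO libraries lay above the WT libraries; the Bard1 KO values fell in or above the range of MPP WT given above, and the Brca1 KO values below it. Blm (chr7:87599879-87680005), the helicase that dissolves recombination intermediates, had 64.9 and 71.8 CPM in WT and 105 and 120.4 CPM in KO (log2 fold change 0.73, SE 0.16, adjusted p = 0.0084). Wrn (chr8:34344856-34495999), a helicase and exonuclease of the same RecQ family, had 118 and 118 CPM in WT and 205 and 199 CPM in KO (log2 fold change 0.79, SE 0.15, adjusted p = 0.00493). Brca2, Rad54l and Palb2 had both KO libraries above both WT libraries with log2 fold changes of 0.38, 0.24 and 0.22, and did not pass the test (adjusted p = 0.122, 0.385 and 0.516). Rad52 and Xrcc3 were the members with negative values, -0.45 and -0.41 (adjusted p = 0.242 and 0.329).

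In the counts as deposited, the Fanconi anaemia genes included the largest change in each direction among the 51 tested genes. Fancc (chr13:63406017-63598586), a subunit of the core ubiquitin ligase, had 8.80 and 7.70 CPM in LT-HSC WT and 21.8 and 25.2 CPM in LT-HSC KO, with a log2 difference of 1.51 (SE 0.28, adjusted p = 0.00409). Fancl (chr11:26286135-26371876), the catalytic subunit of the same complex, had 17.1 and 22.1 CPM in WT and 29.6 and 34.2 CPM in KO (log2 fold change 0.71, SE 0.23, adjusted p = 0.0455). Fancg (chr4:43015215-43023378), another core subunit, fell from 30.6 and 30.2 CPM in WT to 16.5 and 14.4 CPM in KO (log2 fold change -0.96, SE 0.24, adjusted p = 0.0146). The core complex thus had members called in both directions, but with the background described below subtracted none of the 7 Fanconi genes was called (with 1 rate for each span class, Fancg was). Fancd2 and Fanci, the pair that the complex modifies, gave 0.25 and 0.46 (adjusted p = 0.346 and 0.126), with both KO libraries above both WT libraries. For Fancm, the translocase that anchors the complex to DNA, the groups overlapped, with 16.5 and 32.9 CPM in WT and 31.8 and 34.4 CPM in KO.

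Single genes of the signalling, end joining, mismatch and base excision groups made up the rest. Atr (chr9:95758016-95852063), the kinase that answers stalled replication forks, had 58.1 and 62.2 CPM in LT-HSC WT and 78.8 and 99.1 CPM in LT-HSC KO (log2 fold change 0.57, SE 0.17, adjusted p = 0.0338). Atm, the kinase that answers breaks, had overlapping groups, with 109 and 85.3 CPM and 98.9 and 81.8 CPM (log2 fold change -0.09, SE 0.20, adjusted p = 0.759). The effector kinases Chek1 and Chek2 gave -0.30 and 0.45 (adjusted p = 0.396 and 0.109). Of the Mre11a, Rad50 and Nbn complex that holds broken ends, Nbn came nearest to a call, with 36.9 and 34.5 CPM in WT and 58.3 and 47.6 CPM in KO (log2 fold change 0.58, SE 0.20, adjusted p = 0.0573). Prkdc (chr16:15637959-15842332) had 66.7 and 74.5 CPM in WT and 103 and 109.6 CPM in KO, with no overlap (log2 fold change 0.60, SE 0.16, adjusted p = 0.0194). Its Ku partners Xrcc5 and Xrcc6 had overlapping groups and values of -0.21 and 0.05. Msh3 (chr13:92981836-93124958), which recognises larger mismatch loops, had 21.3 and 29.7 CPM in WT and 46.3 and 53.6 CPM in KO (log2 fold change 0.99, SE 0.22, adjusted p = 0.00955). Msh6, its alternative in the complex for single mismatches, had overlapping groups, with 156 and 143 CPM and 134 and 147 CPM (log2 fold change -0.08, SE 0.16, adjusted p = 0.73). Parp1 (chr1:182499086-182531384) fell from 359 and 277 CPM in WT to 219 and 199 CPM in KO (log2 fold change -0.59, SE 0.19, adjusted p = 0.0403). Parp2, a close relative, and Xrcc1 and Lig3, which close the nick that PARP enzymes mark, gave -0.31, -0.41 and -0.23 and did not pass (adjusted p = 0.39, 0.159 and 0.338).

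**Figure D2:**
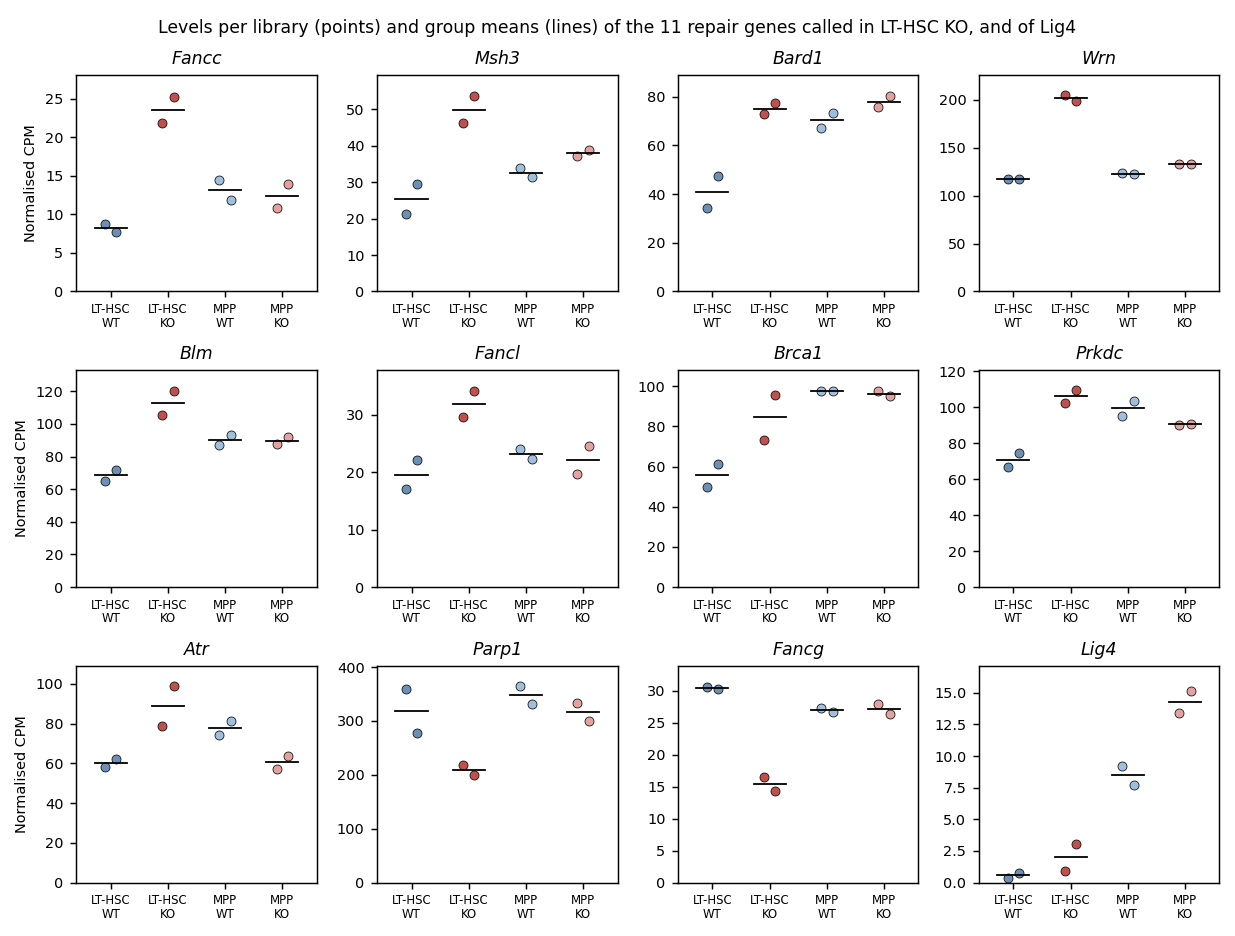
Normalised CPM of each library (points) with the group mean (line) for the 11 repair genes called in LT-HSC KO and for Lig4, with an axis from 0 in every panel. For Fancc the KO libraries of LT-HSC sit at 21.8 and 25.2 CPM, above the 3 other groups, and Fancg and Parp1 are the panels where LT-HSC KO lies lowest.

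Lig4 did not pass the filter in LT-HSC, with 2 and 4 counts in WT and 5 and 16 counts in KO. Fitted without the filter its log2 fold change was 1.76 with an SE of 0.85 and an adjusted p of 0.175. The 9 genes that rose were not equally stable to the loss of a library: without LT-HSC KO 1 the counts were 1 higher and 0 lower, without LT-HSC KO 2 they were 2 and 0, without LT-HSC WT 1 they were 5 and 1, and without LT-HSC WT 2 they were 12 and 6. Fancc was called in all 4 of these fits (adjusted p from 0.000158 to 0.033) and Wrn in 3 of 4 (up to 0.0854, without LT-HSC KO 1). Atr, Brca1, Fancl and Prkdc were each called in 1 of the 4, with adjusted p up to 0.323, 0.329, 0.257 and 0.163, and DESeq2 did not call these 4 genes either. Between the fits that leave out a library, the number of all genes called also moved widely (range in the last section). The change in these counts was therefore not particular to repair genes. By the FDR of the authors' deposited table (under 0.05), 5 repair genes were higher and 1 lower in LT-HSC KO: Fancc, Msh3, Bard1, Wrn, Lig4 and, lower, Fancg, against 27.5% and 8.47% of all genes there. For MPP KO the authors' deposited table called no repair gene, against 5.32% of all genes higher and 2.58% lower.

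Gene length moved with these changes. Across the 51 genes, Spearman's rank correlation between the LT-HSC KO log2 fold change and the gene's span (start to end in the deposited table) was 0.609, against 0.318 across all genes tested, as a description over genes that share the same 4 libraries. All 9 genes that rose spanned more than 50 kb, and both that fell spanned less. Of the 6 repair genes of at least 100 kb, 4 rose and the median log2 fold change was 0.69 (all genes of that span: 0.90, with 52% called higher). Of the 14 between 50 and 100 kb, 5 rose, with a median of 0.39 (all genes: 0.21, 31.6%). Of the 20 between 20 and 50 kb none rose, with a median of -0.02 (all genes: 0.02, 21.3%), and of the 11 shorter ones none rose, with a median of -0.21 (all genes: -0.13, 9.35%). In MPP KO the corresponding correlation was 0.184 over 52 repair genes and 0.162 over all genes.

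LT-HSC KO libraries also held counts in genes that were silent elsewhere, at a level that follows gene span. Over 845 genes of at least 20 kb that had at most 3 counts in both LT-HSC WT libraries together and at most 6 over the MPP libraries, the median was 0.308 and 0.316 counts per kb of span in LT-HSC KO 1 and 2, and 0 in both WT libraries, where the choice of genes fixes it. Split by span into 5 classes of 169 genes, it was 0.343 and 0.386 in the shortest class (20.1 to 24.9 kb) and 0.216 and 0.245 in the longest (59.5 to 434 kb), so that a rate of counts per kb times span overstates the longest genes. Only genes listed for LT-HSC could be chosen. Of these 19685 genes, 19100 and 19216 had counts in LT-HSC KO 1 and 2, and 16834 and 17240 in LT-HSC WT 1 and 2. A near-silent gene may therefore be listed because of its KO counts. The rates, and the shares and subtracted values that rest on them, may thus overstate the background. Multiplied by each gene's span, this background came to a median of 18.8% of the KO excess over the 9 genes that rose. It was 73.5% for Fancc, 40.1% for Fancl, 33.8% for Msh3 and 33.0% for Prkdc, and between 10.3% and 18.8% for Wrn, Blm, Brca1, Bard1 and Atr. Gm16869, a gene model of chromosome 9, stood out in the same libraries: its counts were 4177 and 4050 in WT and 219101 and 225309 in KO. In MPP its counts were 126 and 112 in WT and 260 and 206 in KO. LT-HSC WT thus also lay above MPP WT (log2 fold change 6.33, adjusted p = 4.45e-05 by edgeR).

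**Figure D3:**
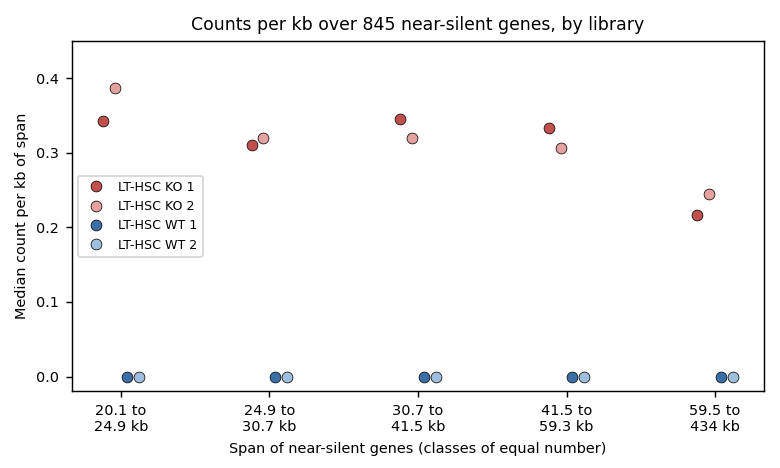
Median counts per kb of span over 845 near-silent genes, in 5 classes of 169 genes by span (x axis, kb), for the 4 LT-HSC libraries (colours). Both KO libraries lie between 0.216 and 0.386 counts per kb and both WT libraries, whose low counts chose the genes, at 0.

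With the background subtracted from the counts, 7 repair genes were higher and 1 lower of 50 tested, against 8.5% and 6.45% of all 14101 genes. Of the 9 genes that rose, 6 kept their call: Bard1 (log2 fold change 0.99, adjusted p = 0.0231), Wrn (0.91, adjusted p = 0.0146), Msh3 (0.90, adjusted p = 0.042), Blm (0.86, adjusted p = 0.0204), Atr (0.66, adjusted p = 0.0495) and Prkdc (0.61, adjusted p = 0.042). Mdc1, the scaffold that binds phosphorylated H2AX beside breaks, was called in addition. It moved from 0.39 (adjusted p = 0.079) to 0.56 (adjusted p = 0.042), with an expected background of 0.432% of its KO count. Such an upward move was not particular to Mdc1. Ddb1 and Msh6, with 0.266% and 0.658%, moved from -0.09 to 0.09 and from -0.08 to 0.09. The median of all genes under 20 kb moved from -0.13 to -0.003. Fancc (0.76, adjusted p = 0.182), Fancl (0.65, adjusted p = 0.116) and Brca1 (0.73, adjusted p = 0.0507) lost their calls, and so did Fancg (-0.84, adjusted p = 0.0537) and Parp1 (-0.43, adjusted p = 0.164). Each of these kept its direction. Xrcc4, which spans 316 kb, turned from 0.41 to -1.80, adjusted p = 0.0405, the 1 gene called lower: its expected background of 97.1 and 99.7 counts took up most of its 112 and 131 counts. All 9 genes that rose and Xrcc4 lie in the longest class of spans, where the rate was lower, so their shares and subtracted values above rest on an overstated background. With a rate of its own for each of the 5 span classes, an alternative chosen after seeing the data, 8 repair genes were higher and 1 lower, against 10.5% and 7.15% of all genes (17.7% in either direction). The median share of the excess was then 13.9%, with 54.3% for Fancc. Brca1 was called (log2 fold change 0.72, adjusted p = 0.0451) and so was Fancg (-0.86, adjusted p = 0.0436). Fancc (1.03, adjusted p = 0.0628), Fancl (0.69, adjusted p = 0.0895) and Parp1 (-0.46, adjusted p = 0.129) were not, and Xrcc4 stood at -0.74 (adjusted p = 0.157). The rank correlation with span over the repair genes was 0.502 (n = 50) after subtraction. The correlation over all genes after subtraction is not given here, so whether the remaining trend is particular to repair genes was not tested. Medians of all genes, a different measure, lay between -0.02 and 0.01 in each range of span.

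**Figure D4:**
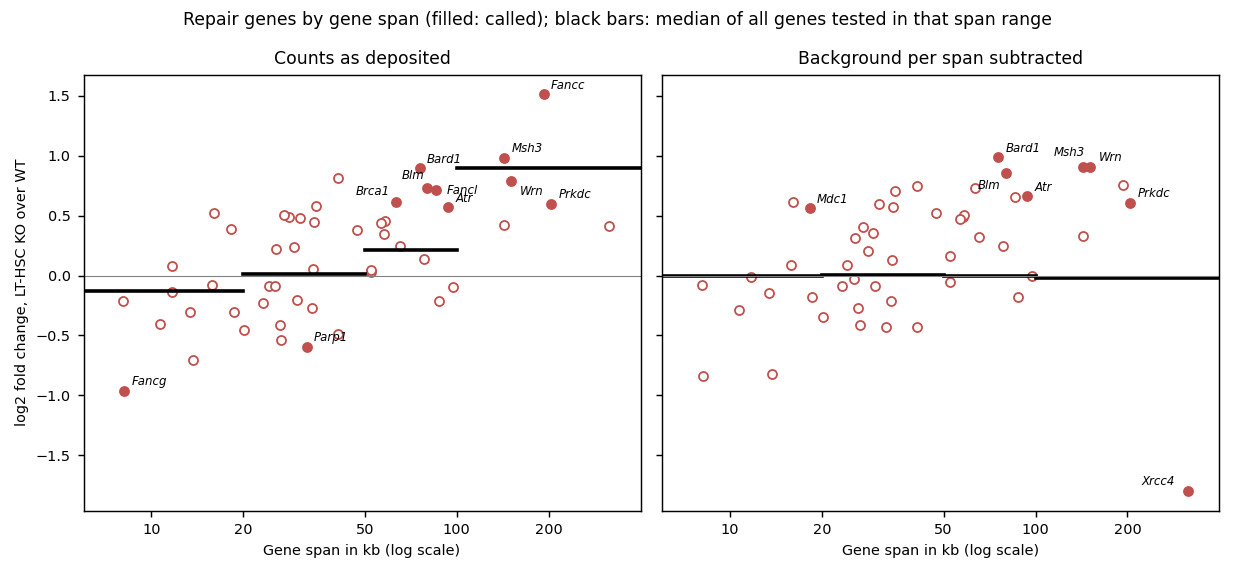
Log2 fold change of the repair genes in LT-HSC KO over WT against gene span (kb, log axis), before and after subtraction of the background; filled points passed the test and black bars are medians over all genes of that span range. Before subtraction all called-higher genes lie to the right of 50 kb; after it the bars lie at 0, and Xrcc4 stands alone at -1.80.

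Markers of other cells moved with the same libraries. Erythroid markers were higher in LT-HSC KO for 10 of 10 tested genes, with summed levels of 4500 and 5226 CPM against 1262 and 1466 CPM in WT. Stromal and endothelial markers were higher for 6 of 8, with 505 and 678 CPM against 97.1 and 99.2 CPM. Cxcl12 was at 0 in both WT libraries. With the background subtracted 5 of 7 were higher (Col1a1, Col1a2, Sparc, Cxcl12 and Lepr), and the endothelial Cdh5 was no longer among them. The endothelial markers Pecam1 (298 and 303 counts in KO, 385 and 370 in WT) and Kdr were not called in either fit. Granulocyte and monocyte markers were higher for 4 of 4 tested (2 of 3 with the background subtracted, S100a8 and Ngp). They summed to only 21.5 and 22.3 CPM in KO and 1.28 and 1.54 CPM in WT, where S100a8 was at 0. B lineage markers (3 higher and 1 lower of 5, but 0 higher and 2 lower with the background subtracted) summed to 59.5 and 61.7 CPM against 36.8 and 40.0 CPM, and of the T lineage markers 1 could be tested and was not called. Megakaryocyte markers were lower for 4 of 4, with 226 and 279 CPM against 627 and 801 CPM, and 2 of 9 LT-HSC markers were lower (1586 and 1606 CPM against 2032 and 2044 CPM). Proliferation markers, which share S-phase expression with many recombination genes, were higher for 7 of 21 and lower for 0, with 4743 and 4958 CPM against 3922 and 4480 CPM. The part of these cells and of cycling in the repair gene values was not tested.

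In MPP, no repair gene was called between KO and WT by edgeR (0 of 52, against 7.2% of all 14902 genes: 4.74% higher and 2.46% lower), and DESeq2 also called 0. At an unadjusted p under 0.05 there were 5 higher and 7 lower. The share of all genes at that threshold is not given here, so these counts are not read as a result about the list. All 12 were called by edgeR in a fit with a block for the replicate number, so the absence of calls depends on the unpaired fit. The block fit also called many more of all genes (counts in the last section), so its calls were not particular to repair genes. Deviations of same-numbered MPP libraries correlated at 0.684, but no label ties a number to a batch. The median log2 fold change was -0.02, against -0.01 over all genes. Both KO libraries lay above both WT libraries for 12 genes and below for 16, against 26.9% and 28.3% of all genes. Values ran from -0.48 for Rad54l to 0.76 for Lig4. Lig4 came nearest to a call, with 9.22 and 7.70 CPM in MPP WT and 13.4 and 15.1 CPM in MPP KO (log2 fold change 0.76, SE 0.16, adjusted p = 0.0537). Msh6 was at 183 and 186 CPM in WT and 147 and 151 CPM in KO (log2 fold change -0.30, SE 0.07, adjusted p = 0.0617), and Rad54l, a motor protein of recombination, at 51.7 and 44.2 CPM and 35.8 and 32.98 CPM (log2 fold change -0.48, SE 0.11, adjusted p = 0.0678). Ercc5 gave 13.8 and 17.5 CPM against 22.99 and 24.2 CPM (log2 fold change 0.60, SE 0.15, adjusted p = 0.0757), and Atr 74.2 and 81.5 CPM against 57.3 and 63.7 CPM (log2 fold change -0.36, SE 0.10, adjusted p = 0.0932). The groups did not overlap for any of these 5 genes. Of the genes that rose in LT-HSC KO, Wrn, Msh3 and Bard1 had both MPP KO libraries above both MPP WT libraries, with log2 fold changes of 0.12, 0.23 and 0.15 (adjusted p = 0.295, 0.196 and 0.319).

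Whether the knockout effect differed between the populations was tested with an interaction term over all 8 libraries. It was higher in LT-HSC than in MPP for 10 of 52 repair genes and lower for 1, against 13.6% and 8.5% of all 16551 genes. Fancc differed most, with a log2 difference of 1.59 (SE 0.30, adjusted p = 0.00977), and Fancg was the gene with the opposite sign, -0.98 (SE 0.20, adjusted p = 0.0125). Atr, with 0.93 (SE 0.19, adjusted p = 0.014), had a positive value in LT-HSC and a negative one in MPP. The same held for Rad50, Rad54l, Nbn and Exo1, the exonuclease of mismatch repair, which passed neither comparison alone. Brca1 and Fancl rose in LT-HSC KO, but their difference from MPP did not pass (0.62 and 0.77, adjusted p = 0.0678 and 0.0682). For the interaction too, the number of all genes called varied widely when a library was left out (range in the last section). With the background subtracted, 10 genes were higher and 2 lower, against 6.65% and 8.33% of all genes; Fancc was no longer among them (with 1 rate for each span class it was, adjusted p = 0.0497). Without MPP WT 2 the counts were 1 higher and 0 lower, and without MPP KO 1 they were the same.

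Bard1, Brca1 and Prkdc were both lower in LT-HSC WT than in MPP WT and higher in LT-HSC KO than in LT-HSC WT. These comparisons share the LT-HSC WT libraries, and the values are given side by side only. Brca1 ran from 50.1 and 61.4 CPM in LT-HSC WT through 73.3 and 95.6 CPM in LT-HSC KO to 97.6 and 97.7 CPM in MPP WT and 97.6 and 94.96 CPM in MPP KO. Bard1 was at 34.1 and 47.6, 72.8 and 77.4, 67.2 and 73.4 and 75.6 and 80.2 CPM in the same order, and Prkdc at 66.7 and 74.5, 103 and 109.6, 95.3 and 103 and 90.3 and 90.9 CPM. In each case the LT-HSC WT libraries were the lowest of the 8, which follows largely from how these genes were chosen. No repair gene was higher in LT-HSC WT than in MPP WT and lower in LT-HSC KO. The share of all genes with either pair of calls is not given here.

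Further genes of these pathways, listed outside the 53, were read the same way. Of 54 other repair genes tested in LT-HSC KO, 8 were higher and 3 lower, with a median of 0.08. Recql4, a RecQ helicase of replication, was at 2.16 on the log2 scale (SE 0.27, adjusted p = 0.00091), and Ube2t, the conjugating enzyme that works with Fancl, 1.65 (SE 0.27, adjusted p = 0.00262). Polk, a translesion polymerase, gave 1.40 and Neil1, a base excision glycosylase, -1.35 (adjusted p = 0.00775 and 0.0253). Over all genes 22.5% were higher and 10.9% lower; the list stood at 14.8% and 5.56%. Of 19 other damage signalling genes, 2 were higher (Cdc25c, 0.93, and Timeless, 0.58) and 1 lower (H2afx, -0.64), which is 10.5% and 5.26%. Of 20 p53 target genes, 4 were higher and 5 lower, which is 20% and 25%. Cdkn1a, the p21 cell cycle inhibitor, fell by 1.93 and Bbc3, the death gene Puma, fell by 1.73 on the log2 scale (adjusted p = 0.000267 and 0.00149), while Zmat3 and Ei24 rose (1.11 and 1.11, adjusted p = 0.0295 and 0.0125). The p53 targets thus had called members in both directions. H2afx encodes the histone variant that marks breaks. With the background subtracted the calls of Neil1, H2afx and Zmat3 were lost (adjusted p = 0.0774, 0.123 and 0.0714), and the counts became 7 higher and 2 lower of 54 other repair genes, 2 and 0 of 19 signalling genes, and 2 and 4 of 19 p53 targets. These are 13% and 3.7%, 10.5% and 0%, and 10.5% and 21.1%. Over all genes 8.5% were then higher and 6.45% lower.

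In MPP KO, where 4.74% of all genes were higher and 2.46% lower, 1 of 53 other repair genes was higher (Dclre1c, the end joining nuclease Artemis, log2 fold change 0.51, adjusted p = 0.0437) and 1 lower (Mad2l2, -0.71, adjusted p = 0.0477), and none of 19 damage signalling genes was called. Of 19 p53 targets, 2 were higher and 3 lower (10.5% and 15.8%), among them Trp53inp1 (1.27), Perp (-1.05), Pmaip1 (-0.65) and Cdkn1a (-0.59; adjusted p = 0.0104, 0.0423, 0.0313 and 0.0157). Between the WT populations, 8 of 54 other repair genes were higher in LT-HSC and 11 lower (14.8% and 20.4%, against 17.4% and 16.9% of all genes), with Mbd4 (-1.65), Eme1 (-1.30) and Recql4 (-1.23) lower and Mgmt, which removes alkyl groups from guanine, higher (1.36). Of 19 damage signalling genes 5 were lower (26.3%) and 0 higher, including Cdc25c (-1.22), Atrip (-0.69), the partner of Atr, Rnf168 (-0.67) and Rpa2 (-0.54). Of 19 p53 targets 3 were higher (15.8%), including Bbc3 (1.19), and 6 lower (31.6%), including Pmaip1 (-2.60), Trp53inp1 (-2.49) and Ei24 (-0.90).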

How the data were processed

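Whole-gene read counts, 1 table per population, were deposited by the authors. Reads were processed with CASAVA and TopHat on mm9, per the submitters' processing notes; for the counter, the annotation and strand handling: not given in the sources used here. The authors' deposited log2 fold changes and log2 mean levels, the likelihood ratio score, and the p-value and FDR per gene stand in the same tables, per the file headers. Only the fold changes and FDR were read, for the statements that name that table. Tables were joined by Ensembl ID. The 53 genes, their roles and the other lists were chosen with earlier results of these data known.

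Counts were fitted with edgeR 4.0.16 in R 4.3.3 (filterByExpr, TMM scaling, quasi-likelihood test), with Benjamini-Hochberg adjustment over all genes and a threshold of 0.05; SEs were derived from the log2 estimate and its F statistic. Comparisons within a population used its 4 libraries, the WT comparison 4, and the interaction 8. CPM are scaled over all 8 libraries. Exon lengths are unions of GENCODE vM21 exons on GRCm38, used for length only. The background estimate is described beside its values. Any of the 53 genes may be named; of the other pathway lists, at most 4 per comparison, the largest called changes with a mean of at least 50 normalised counts. Alternatives were DESeq2 1.42.0, its size factors in edgeR, no filter, a replicate block, background subtraction, the same with 1 rate for each span class (added after seeing the data), and leaving out each library. The fits were tested on simulated counts. Replicate libraries differed by more than sampling noise (chi-square per degree of freedom 10.4 to 14.9), so none was counted as a duplicate.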

Additional observations from a re-analysis of the deposited data

Results flagged for a closer look

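For 11 repair genes the knockout effect in LT-HSC differed from that in MPP by the interaction test of edgeR (adjusted p under 0.05), which is why they are listed here. That is 21.2% of the 52 tested, near the 22.1% of all 16551 genes. The log2 effect in LT-HSC exceeded that in MPP by 1.59 for Fancc, 0.93 for Atr, 0.74 for Blm, 0.73 for Bard1, 0.72 for Prkdc and 0.71 for Rad54l. It exceeded it by 0.70 for Nbn, 0.67 for Exo1, 0.66 for Wrn and 0.61 for Rad50. Fancg had the opposite sign, with a difference of -0.98. With the background subtracted, 10 of the 11 kept their calls; Fancc lost it (adjusted p = 0.133) and kept it with 1 rate for each span class (1.11, adjusted p = 0.0497). By DESeq2, Exo1 and Nbn were not called. Fancc kept its call when any single library was left out, whereas each of the other genes lost it without some MPP library.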

How the results depend on the processing

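Counts below are repair genes higher and lower, then all genes called. In LT-HSC KO, DESeq2 called 5 repair genes higher, the fit without a filter called 1 lower, and background subtraction called 1 lower and 2107 genes in all. With 1 background rate for each span class, chosen after seeing the data, 1 was lower and 2529 genes were called in all. Xrcc4 reversed to -1.80 under the first subtraction and to -0.74 under the other. In MPP KO, 575 genes were called without a filter. For the interaction, background subtraction called 2 lower and 2349 genes in all, and 2350 with rates by class. Without a minimum span the background share was 26.6% in place of 18.8%. Causes were not tested. Leaving out 1 library each gave 1 to 12, 0 to 6 and 2325 to 6756 in LT-HSC KO. The same gave 0 to 0, 0 to 0 and 0 to 268 in MPP KO, where the count over all genes was 0 without either MPP WT library. It gave 1 to 7, 3 to 15 and 2464 to 7069 between the WT populations, and 1 to 15, 0 to 3 and 1132 to 4237 for the interaction. In these fits a lone library is assumed to vary like the other groups. Replicate numbers are shared between groups, and deviations of same-numbered libraries correlated at 0.424, 0.684 and 0.458 in LT-HSC, MPP and WT, but with 2 pairs and no label that ties a number to a batch the samples were not treated as paired. With the replicate block the counts were 19, 6 and 8824 in LT-HSC KO, 12, 13 and 7234 in MPP KO, 6, 22 and 7819 between the WT populations, and 19, 6 and 7940 for the interaction. Depth in LT-HSC (at most 5479731 counts) limits Lig4, Mutyh and Rad51c, whose SEs there were 0.85, 0.69 and 0.47.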
